A study of Homo sapiens with 24 samples.

Results

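The genes described here are the core of the cellular oxygen-sensing pathway: the alpha subunits of the hypoxia-inducible factor HIF (HIF1A, EPAS1 and HIF3A), their partner subunit ARNT, the prolyl hydroxylases EGLN1, EGLN2 and EGLN3, the asparaginyl hydroxylase HIF1AN, the ubiquitin ligase subunit VHL and the HIF competitor CITED2. They are 10 of 58884 listed genes, taken by symbol. The list was chosen on the expression values of these same libraries, with the results for cells expressing a truncated SETD2 (SETD2 C) already known, so the members' values in those cells are given as a description and nothing is read from their number. Of the 10 genes, 9 passed the filter on low values in each table of libraries and HIF3A did not, and those 9 were above the filter's limit in every library.

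RNA was measured in HEK293T, a human embryonic kidney cell line, in 10 libraries that fall into 2 tables made separately. The first table holds 2 untreated wild-type (WT) libraries and 2 untreated libraries of KO, the derivative line in which both alleles of SETD2, the enzyme that trimethylates H3K36, were disrupted. The second holds 2 untreated KO libraries, 2 of KO cells rescued with full-length SETD2 (SETD2 FL) and 2 of KO cells rescued with SETD2 C, residues 1404 to 2564, which lacks the long N-terminal segment. Both constructs were driven by a CMV promoter, and RNA was taken 72 h after transfection. Because the KO libraries are labelled untreated, transfection and SETD2 expression cannot be told apart when a rescued group is compared with KO, whereas SETD2 C and SETD2 FL were both transfected. The source of the KO cells as a clone or pool is not given in the sources used here. The labels do not say that replicates came from separate cultures. The study mentions independent biological samples in the legend of its quantitative PCR panels, with a number other than the 2 libraries per group here. The p-values therefore measure only the spread between these libraries, which may be technical.

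Values are TPM, an abundance corrected for transcript length and taken relative to the library's total, so depth is unknown and levels of different genes can be set side by side within a library. TPM as deposited is printed for levels. Fold changes and tests used TPM scaled between libraries, as log2(scaled TPM + 0.5), in limma. To be called, a gene needed an adjusted p (Benjamini-Hochberg over all genes tested) no higher than 0.05 together with a difference of 2-fold or more. The adjusted p alone served as a second, wider rule. The intervals given are 95% confidence intervals, and SE is the standard error of a log2 fold change.

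SETD2 itself was at 12.6 and 14.8 TPM in the libraries labelled WT and at 16.2 and 16.3 in the libraries labelled KO of the first table. Its transcript was therefore no lower in libraries labelled KO than in WT, and the group names used here are those of the labels. The study reports that its KO cells had no H3K36me3, by western blot and by ChIP-seq. For the second table, libraries labelled KO had 12.0 and 12.2 TPM, SETD2 FL had 439 and 422, and SETD2 C had 1329 and 1264. SETD2 TPM and the truncation therefore differ together between SETD2 C and SETD2 FL and cannot be told apart. By western blot the study also found more SETD2 protein and more H3K36me3 with SETD2 C, so these differ along with them. It reports no significant difference in mRNA between the constructs. The TPM of a truncated insert also depends on the transcript length to which its reads were assigned, so these values do not measure the relative amounts of the inserts' transcripts.

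Several library-wide measures also moved with the groups. The 13 mitochondrially encoded protein genes made up 6.73% and 5.88% of TPM in KO replicates 2 and 4, 10.4% and 7.43% for SETD2 FL and 2.44% and 2.78% for SETD2 C. Genes listed above 0 numbered 24691 and 24306 in KO, 25440 and 25134 for SETD2 FL and 27104 and 26139 for SETD2 C. In the first table the first WT library stood apart, with 22.6% of TPM from the mitochondrial genes against 13.8% in the second WT library and 11.8% and 12.2% in KO. The 7 markers fixed for HEK293T summed to between 715 and 1015 TPM in the first table and between 896 and 1495 TPM in the second, highest with SETD2 C. Most of each sum was VIM, at between 444 and 926 TPM, while PAX2 was at 0.99 to 2.21 TPM and LHX1 at 0.62 to 1.49 TPM. With SETD2 C relative to KO, 6 of the 7 had positive log2 fold changes, the highest being KRT8 (1.61) and NEFM (1.20). CDH2 had -0.16. The 8 markers of other cell types summed to 6.59, 7.24, 10.5 and 10.8 TPM in WT and KO of the first table. Their sums were 7.15 and 7.20 TPM in KO of the second table, 7.40 and 9.26 for SETD2 FL and 12.8 and 11.1 for SETD2 C. Nearly all of each sum was COL1A1, a fibrillar collagen, at up to 12.1 TPM, and between 1 and 4 of the 8 were listed at 0 in each library. The part of these measures in the results was not tested.

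In oxygenated cells the EGLN enzymes hydroxylate prolines of the HIF alpha subunits, VHL recognises the hydroxylated protein, and the alpha subunit is ubiquitinated and degraded. HIF1AN hydroxylates an asparagine that HIF alpha needs to bind the coactivators p300 and CBP, for which CITED2 competes. EGLN1, EGLN3 and CITED2 are themselves induced by HIF and form feedback loops, while EGLN2 is not a usual HIF target. VHL and SETD2 lie on the same chromosome arm, and both are often lost in clear cell renal carcinoma. RNA-seq measures the transcripts of these genes, not HIF protein or its hydroxylation.

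HIF binds DNA at a short core, ACGTG or GCGTG. Promoter sequences from RefSeq on GRCh38.p14 were matched by symbol for 9 of the 10 genes, in 15 windows of 300 bases, and searched for both cores on both strands (CACGT and CACGC on the reverse). The palindrome CACGTG counts as 2 overlapping matches. A core of either kind occurred in 8 of the 15 windows, beside 48.4% of all 35116 promoters, and ACGTG occurred in 20.0%, beside 21.4%. Among 82 promoters of 51 HIF-responsive genes described further on, 80.5% held either core and 48.8% held ACGTG. In promoters of genes tested in the second table the shares were 60.3% and 25.1%. Where a gene had several windows, the window with the most ACGTG matches was chosen for display, and the stretch taken from it holds the core. The stretches shown are those of the 3 prolyl hydroxylases, which differed in expression, and of CITED2, which had the largest difference, with the cores in capitals and each written in its gene's direction. They lie at chr6:139374749-139374848 on the minus strand for CITED2, chr1:231422288-231422387 on the minus strand for EGLN1, chr19:40799091-40799190 on the plus strand for EGLN2 and chr14:33951085-33951184 on the minus strand for EGLN3.
CITED2: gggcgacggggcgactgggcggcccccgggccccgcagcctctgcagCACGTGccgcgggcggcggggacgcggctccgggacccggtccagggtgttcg
EGLN1: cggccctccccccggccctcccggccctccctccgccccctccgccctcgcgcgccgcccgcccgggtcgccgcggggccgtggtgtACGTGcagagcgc
EGLN2: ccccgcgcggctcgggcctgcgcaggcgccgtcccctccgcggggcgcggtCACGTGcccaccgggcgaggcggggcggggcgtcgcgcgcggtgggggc
EGLN3: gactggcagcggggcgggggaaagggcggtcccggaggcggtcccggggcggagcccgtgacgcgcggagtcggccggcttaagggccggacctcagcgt
ACGTG begins 13 bases before the RefSeq promoter start used for EGLN1, 48 bases before that for EGLN2 and 152 bases before that for CITED2. These starts need not be the ends of the gene spans given below, and the EGLN2 and EGLN3 stretches lie inside theirs. EGLN2 has a second window with neither core, and CITED2 has 3 windows in all, of which the other two hold GCGTG and no ACGTG. The EGLN3 window held neither core. A match is a description of the letters in these windows and not a bound site.

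The HIF alpha subunits were described first. HIF1A (ENSG00000100644, chr14:61695513-61748259, plus strand, 15 exons), the widely expressed alpha subunit, was at 22.2 TPM in KO replicates 2 and 4 alike, 22.7 and 24.6 for SETD2 FL and 25.0 and 27.9 for SETD2 C. Both SETD2 C libraries lay above both KO libraries and above the higher SETD2 FL library, in TPM as deposited. After scaling the SETD2 C and SETD2 FL libraries overlapped. Relative to KO, the log2 fold change with SETD2 C was 0.10 (SE 0.07, interval from -0.07 to 0.27) and with SETD2 FL 0.07 (SE 0.07, interval from -0.10 to 0.23). Without scaling the SETD2 C value was 0.24 and past the adjusted p, the 1 setting of 16 in which it was. In the first table HIF1A was at 50.0 and 54.6 TPM in WT and 62.5 and 54.2 TPM in KO, and the groups overlapped (log2 fold change of -0.03, interval from -0.24 to 0.19). HIF1A shares exon sequence with the antisense lncRNA HIF1A-AS3, listed at 0 in KO of the second table, 0.15 and 0.08 TPM for SETD2 FL and 2.40 and 2.44 TPM for SETD2 C. The strand setting of the authors' counting is not given in the sources used here, so reads of the overlapping pair cannot be told apart. A lncRNA on the same strand, ENSG00000258964, shares 148 exon bases with HIF1A and was at 3.12 and 2.86 TPM in KO of the second table, 2.54 and 2.35 for SETD2 FL and 5.31 and 11.91 for SETD2 C.

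EPAS1 (ENSG00000116016, chr2:46293667-46386697, plus strand, 16 exons) encodes HIF2 alpha, the subunit with the more restricted tissue range. Its TPM was 10.1 and 8.86 in KO of the second table, 7.64 and 8.17 for SETD2 FL and 9.90 and 11.8 for SETD2 C. SETD2 FL held the 2 lowest values, and SETD2 C overlapped KO. The log2 fold change was -0.27 with SETD2 FL relative to KO (SE 0.10, limma adjusted p = 0.280), 0.04 with SETD2 C relative to KO (SE 0.10) and 0.31 with SETD2 C relative to SETD2 FL (SE 0.10, interval from 0.07 to 0.55). WT libraries had 10.9 and 9.61 TPM and KO libraries of the first table had 12.8 and 11.9 TPM, with a log2 fold change of -0.13 (SE 0.14, interval from -0.46 to 0.21). The ratio of HIF1A to EPAS1, a quantity that scaling between libraries leaves as it is, was 2.20 and 2.51 in KO of the second table, 2.96 and 3.01 for SETD2 FL and 2.52 and 2.36 for SETD2 C. HIF1A was the more abundant alpha transcript in all 10 libraries.

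HIF3A (ENSG00000124440, chr19:46297042-46343433, plus strand, 15 exons), whose splice forms include inhibitors of the other alpha subunits, was at or near 0. It was listed at 0 and 0.06 TPM in WT, 0.01 and 0 in KO of the first table, 0.01 and 0 in KO of the second table, 0.10 and 0.21 for SETD2 FL and 0.12 and 0.04 for SETD2 C. No fold change is given at these levels.

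ARNT (ENSG00000143437, chr1:150809713-150876708, minus strand, 22 exons), the beta subunit that every HIF alpha needs to bind DNA, was at 24.1 and 22.1 TPM in KO of the second table, 21.7 and 24.3 for SETD2 FL and 27.6 and 28.9 for SETD2 C. The SETD2 C libraries were the highest of the 6, and KO and SETD2 FL overlapped. Its log2 fold change with SETD2 C was 0.14 relative to KO (SE 0.07, interval from -0.02 to 0.30) and 0.17 relative to SETD2 FL (SE 0.07, interval from 0.00 to 0.33). Without scaling both were 0.29 and past the adjusted p, which they were in no other setting. In the first table ARNT ranged from 22.1 to 35.1 TPM between the 2 WT libraries, with KO at 32.7 and 31.3 TPM, so the groups overlapped.

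**Figure D1:**
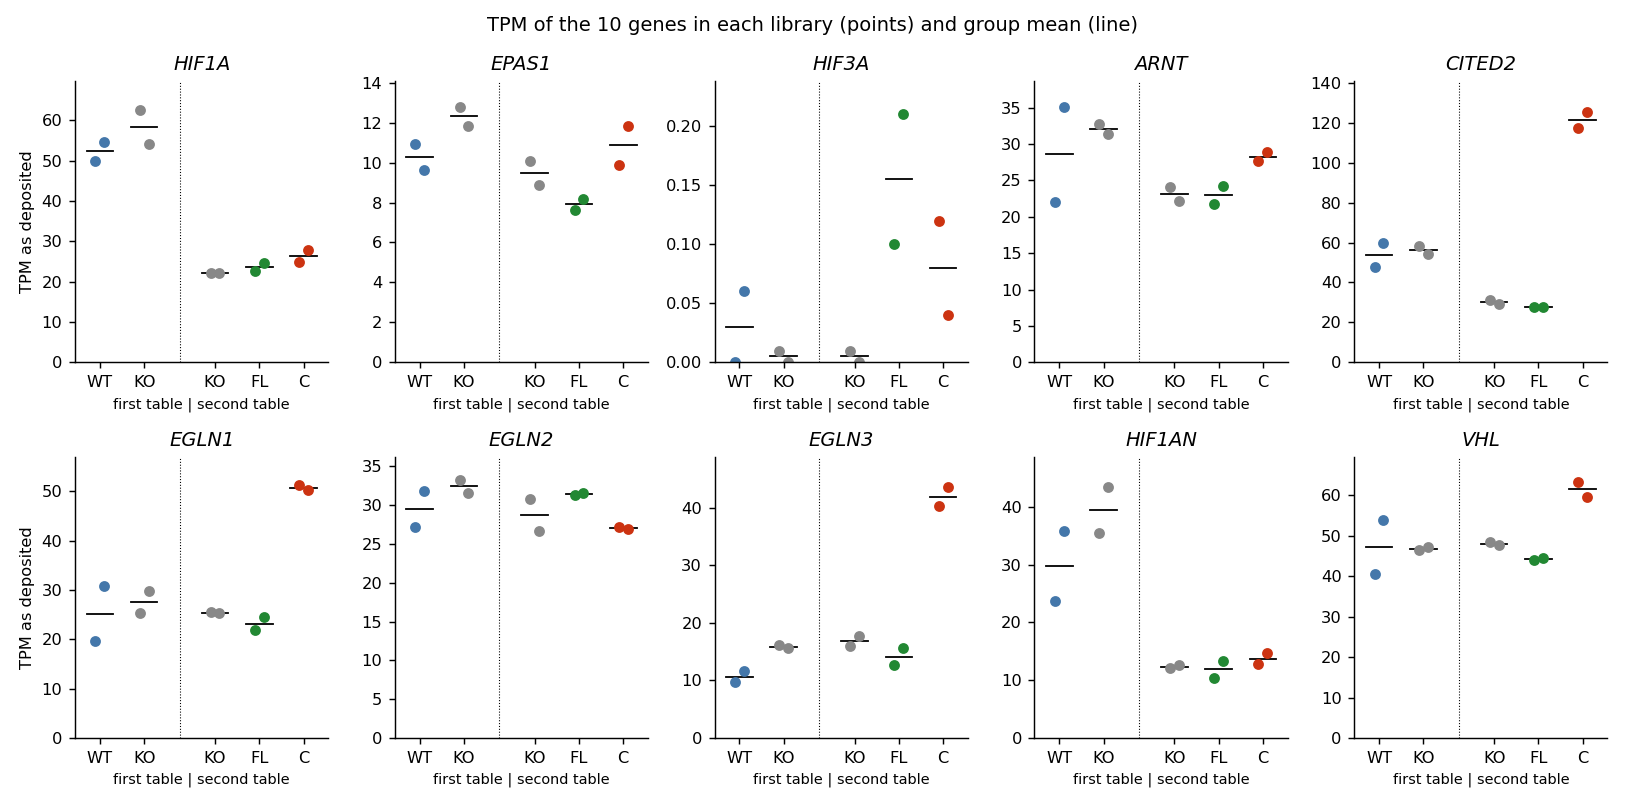
TPM as deposited of the 10 genes in each library (points, 2 per group) with the group mean (line); the dotted line parts the first table (WT, KO) from the second (KO, SETD2 FL as FL, SETD2 C as C). The SETD2 C libraries lie far above the rest of their table for CITED2 (118 and 126 TPM), EGLN1 (51.2 and 50.3 TPM) and EGLN3 (40.3 and 43.5 TPM). For the other genes tested, group means within that table differ by at most 0.34 in log2 values after scaling.

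The prolyl hydroxylases differed among themselves. EGLN1 (ENSG00000135766, chr1:231363751-231422287, minus strand, 5 exons), also called PHD2 and the main oxygen sensor of most cells, was at 25.6 and 25.3 TPM in KO of the second table, 21.8 and 24.5 for SETD2 FL and 51.2 and 50.3 for SETD2 C. Both SETD2 C libraries were far above the other 4, and both SETD2 FL libraries were below both KO libraries. With SETD2 C the log2 fold change was 0.84 relative to KO (SE 0.06, interval from 0.69 to 0.98), or 1.79-fold, and 0.99 against SETD2 FL (SE 0.06, interval from 0.85 to 1.14). The latter lay just under a fold change of 2 and was above it without scaling (1.12), under quantile normalization (1.03), without SETD2 FL replicate 4 (1.04) and without SETD2 C replicate 2 (1.01). For SETD2 FL relative to KO it was -0.15 (SE 0.06, limma adjusted p = 0.286). EGLN1 shares 3004 exon bases with a protein-coding gene on the same strand, ENSG00000287856, for which no TPM is listed.

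EGLN3 (ENSG00000129521, chr14:33924227-34462774, minus strand, 5 exons), also called PHD3 and known for its strong induction in hypoxia, was at 15.9 and 17.7 TPM in KO of the second table, 12.7 and 15.6 for SETD2 FL and 40.3 and 43.5 for SETD2 C. The SETD2 C libraries lay above all others of the table, and the SETD2 FL libraries below both KO libraries. The log2 fold change with SETD2 C was 1.15 relative to KO (SE 0.10, interval from 0.93 to 1.37) and 1.41 relative to SETD2 FL (SE 0.10, interval from 1.19 to 1.64), fold changes of 2.22 and 2.66. For SETD2 FL relative to KO it was -0.26 (SE 0.10, limma adjusted p = 0.254).

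EGLN3 also differed between WT and KO. The list was chosen on values of these same libraries, so the p-values of EGLN3 here are descriptions. EGLN3 was at 9.67 and 11.7 TPM in WT and 16.2 and 15.6 TPM in KO of the first table, so both WT libraries were below both KO libraries. The log2 fold change of WT relative to KO was -0.43 (SE 0.08, limma adjusted p = 0.0401), which makes KO 1.35-fold higher on this scale. It was not past the adjusted p without WT replicate 1, the library that stood apart (log2 fold change of -0.41, limma adjusted p = 0.0980), without KO replicate 1 (-0.42, adjusted p = 0.166) and without KO replicate 2 (-0.45, adjusted p = 0.201). It was past it in 8 of 14 settings, over which the limma adjusted p ranged from 0.0346 to 0.201 and the log2 fold change from -0.56 to -0.41.

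EGLN2 (ENSG00000269858, chr19:40798996-40808434, plus strand, 6 exons), also called PHD1, did not share the higher values with SETD2 C. Its TPM was 30.8 and 26.7 in KO of the second table, 31.3 and 31.6 for SETD2 FL and 27.2 and 26.9 for SETD2 C. In TPM as deposited SETD2 C overlapped KO and lay below SETD2 FL, and after scaling both SETD2 C libraries were also below both KO libraries. The log2 fold change with SETD2 C was -0.23 relative to KO (SE 0.08, interval from -0.40 to -0.06) and -0.34 relative to SETD2 FL (SE 0.08, interval from -0.51 to -0.17). Without scaling these were -0.08 and -0.21, and without KO replicate 2 the former was -0.14. Relative to KO, EGLN2 was past the adjusted p in 5 of 16 settings, the setting used here among them. It was not past it with any of the other 5 libraries left out in turn (-0.24 to -0.14), and was past it without KO replicate 4 (-0.32). EGLN2 shares exon sequence on the same strand with the readthrough gene RAB4B-EGLN2, which was between 0.05 and 1.65 TPM in the 10 libraries. In the first table EGLN2 was at 27.1 and 31.8 TPM in WT and 33.2 and 31.6 TPM in KO, with overlapping groups and a log2 fold change of -0.01 (interval from -0.18 to 0.16).

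The make-up of the hydroxylase transcripts differed accordingly. The TPM of EGLN1, EGLN2 and EGLN3 summed to 72.3 and 69.6 in KO of the second table, 65.9 and 71.6 for SETD2 FL and 118.7 and 120.7 for SETD2 C. EGLN2 was the most abundant of the 3 in both KO libraries and both SETD2 FL libraries and the least abundant in both SETD2 C libraries. Its share of the sum was 42.6% and 38.4% in KO, 47.6% and 44.1% for SETD2 FL and 22.9% and 22.3% for SETD2 C. EGLN1 made up 35.4% and 36.3% in KO and 43.2% and 41.7% with SETD2 C, and EGLN3 22.0% and 25.4% in KO and 33.9% and 36.1% with SETD2 C. In the first table the sum was 56.4 and 74.3 TPM in WT and 74.9 and 77.0 TPM in KO, and the EGLN3 share was 17.1% and 15.7% in WT against 21.6% and 20.2% in KO.

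**Figure D2:**
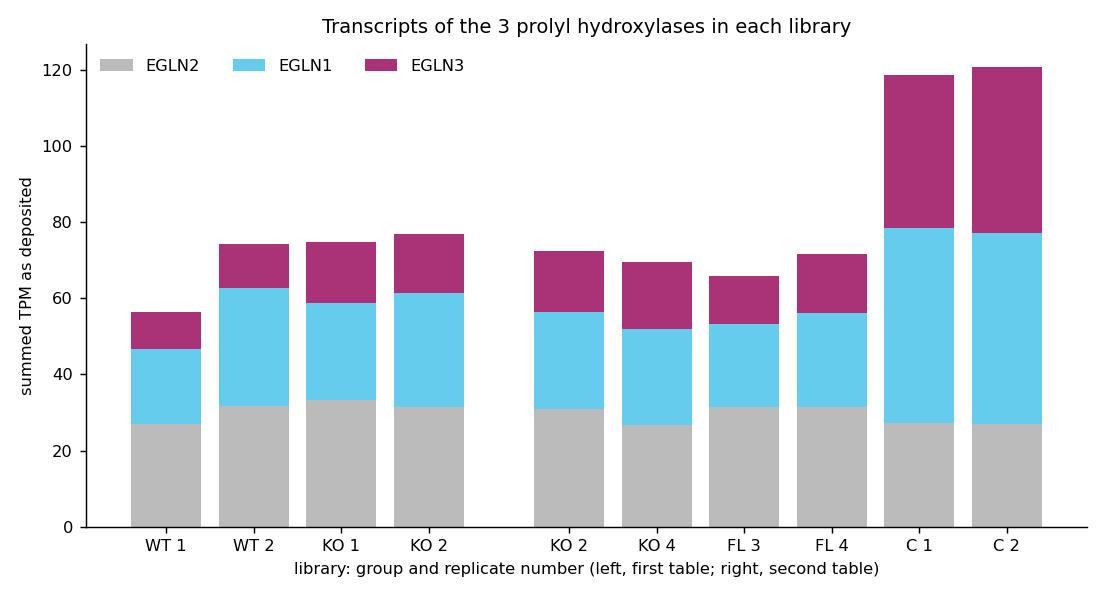
TPM as deposited of EGLN2, EGLN1 and EGLN3, stacked, in each of the 10 libraries, with the first table on the left and the second on the right; labels give the group and replicate number. The bars reach 118.7 and 120.7 TPM with SETD2 C and at most 77.0 TPM elsewhere, and the EGLN2 segment is about the same height in both SETD2 C libraries as in KO replicate 4.

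HIF1AN (ENSG00000166135, chr10:100529072-100559998, plus strand, 8 exons), the asparaginyl hydroxylase also called FIH, was at 12.1 and 12.6 TPM in KO of the second table, 10.5 and 13.3 for SETD2 FL and 12.8 and 14.7 for SETD2 C. The 3 groups overlapped after scaling. Its log2 fold change with SETD2 C was 0.00 relative to KO (SE 0.11, interval from -0.25 to 0.26). In the first table it was at 23.7 and 35.8 TPM in WT and 35.4 and 43.4 TPM in KO, a log2 fold change of -0.29 (SE 0.15, limma adjusted p = 0.264). HIF1AN overlaps the antisense gene NDUFB8, a respiratory chain subunit at between 298 and 430 TPM, by 325 exon bases.

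VHL (ENSG00000134086, chr3:10141778-10153667, plus strand, 3 exons), the substrate-binding subunit of the ligase, was at 48.4 and 47.6 TPM in KO of the second table, 43.99 and 44.39 for SETD2 FL and 63.2 and 59.6 for SETD2 C. SETD2 C was highest, KO intermediate and SETD2 FL lowest, with no overlap between the 3 groups. The log2 fold change with SETD2 C was 0.21 relative to KO (SE 0.06, interval from 0.07 to 0.34) and 0.34 relative to SETD2 FL (SE 0.06, interval from 0.21 to 0.48). Relative to KO it did not pass the adjusted p without KO replicate 2 (0.21), without KO replicate 4 (0.20) or without SETD2 C replicate 1 (0.16), nor with eBayes without trend (0.21). SETD2 FL relative to KO gave -0.14 (SE 0.06, limma adjusted p = 0.301). WT libraries had 40.4 and 53.9 TPM and KO libraries of the first table had 46.5 and 47.1 TPM (log2 fold change of 0.13, interval from -0.07 to 0.33). VHL shares 1173 exon bases with an antisense lncRNA, ENSG00000287086, for which no TPM is listed, so its part in the VHL values was not tested.

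CITED2 (ENSG00000164442, chr6:139371807-139374648, minus strand, 2 exons), which competes with HIF alpha for p300 and CBP, had the widest range of group means of the 9 genes. It was at 31.2 and 29.2 TPM in KO of the second table, 27.5 and 27.7 for SETD2 FL and 118 and 126 for SETD2 C. The SETD2 C libraries were far above the other 4, and SETD2 FL was below KO. The log2 fold change with SETD2 C was 1.85 relative to KO (SE 0.06, interval from 1.70 to 1.99) and 1.99 relative to SETD2 FL (SE 0.06, interval from 1.85 to 2.13), fold changes of 3.59 and 3.97. SETD2 FL relative to KO gave -0.15 (SE 0.06, limma adjusted p = 0.303). In the first table it was at 47.6 and 59.6 TPM in WT and 58.5 and 54.2 TPM in KO, with overlapping groups and a log2 fold change of 0.05 (interval from -0.13 to 0.23).

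Across the 9 genes, WT against KO had 1 gene past the adjusted p (EGLN3, lower in WT), beside 4.48% of 14746 genes tested, and no gene at a fold change of at least 2 as well, beside 1.36%. By limma, 1 of the 9 had an unadjusted p under 0.05, beside 24.9% of all genes. None was past the adjusted p in the higher direction, beside 3.17%. After scaling, the groups did not overlap for 2 of the 9 (EGLN3 and VHL), beside 56.8% of all genes. VHL did overlap in TPM as deposited. The members were listed with earlier results of these libraries known, so these counts and p-values are descriptions, and nothing is read from them.

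For SETD2 FL against KO, 0 of the 9 passed the adjusted p, beside 0.207% of 15933 genes tested, and 0 also differed 2-fold or more, beside 0.0816%. An unadjusted p under 0.05 from limma was reached by 5 of the 9, beside 15.9% of all genes. These were EPAS1, EGLN1, EGLN3, VHL and CITED2, all lower with SETD2 FL in both libraries, with log2 fold changes between -0.27 and -0.14. SETD2 FL against KO is the difference between both comparisons with SETD2 C, whose results were known when the genes were listed. Its counts and p-values, here and for single members above, are therefore descriptions, and nothing is read from them. Lower values without overlap occurred for 5 of 9, beside 23.4% of all genes, and higher ones for 1 of 9 (HIF1A), beside 24.8%. The highest adjusted p of the 9 was 0.889, for ARNT (log2 fold change of -0.03, interval from -0.19 to 0.14).

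The results of both comparisons with SETD2 C were known when the genes were listed. Against KO, 4 of the 9 were past the adjusted p as higher (CITED2, EGLN3, EGLN1 and VHL), beside 21.1% of all genes, and 1 as lower (EGLN2), beside 15.1%. The EGLN2 difference was past it in 5 of 16 settings, and was -0.14 without KO replicate 2, -0.24 without SETD2 C replicate 1, -0.22 without SETD2 C replicate 2 and -0.23 without either SETD2 FL replicate, none of them past it. At a fold change of at least 2 as well, 2 were higher (CITED2 and EGLN3), beside 3.75%. Libraries did not overlap for 6 higher genes, beside 40.5%, and for 1 lower gene, beside 30.8%.

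Relative to SETD2 FL, 5 of the 9 were past the adjusted p as higher with SETD2 C (the same 4 and EPAS1), beside 21.4%, and 1 as lower (EGLN2), beside 16.8%. EPAS1 was only just past it, in 4 of 16 settings, and was not past it without SETD2 C replicate 2 (0.19), SETD2 FL replicate 3 (0.29), SETD2 FL replicate 4 (0.33) or either KO replicate (0.31). EGLN2 was past it in 13 of 16 settings, the exceptions being without SETD2 FL replicate 3 (-0.32), without SETD2 C replicate 2 (-0.33) and without scaling (-0.21). CITED2 and EGLN3 were the 2 genes also at a fold change of at least 2, beside 3.36%. Libraries did not overlap for 6 higher genes, beside 40.3%, and for 1 lower gene, beside 32.0%. The comparisons with SETD2 C share its libraries, and those with KO share the KO libraries, so their values stand side by side and do not repeat each other independently.

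**Figure D3:**
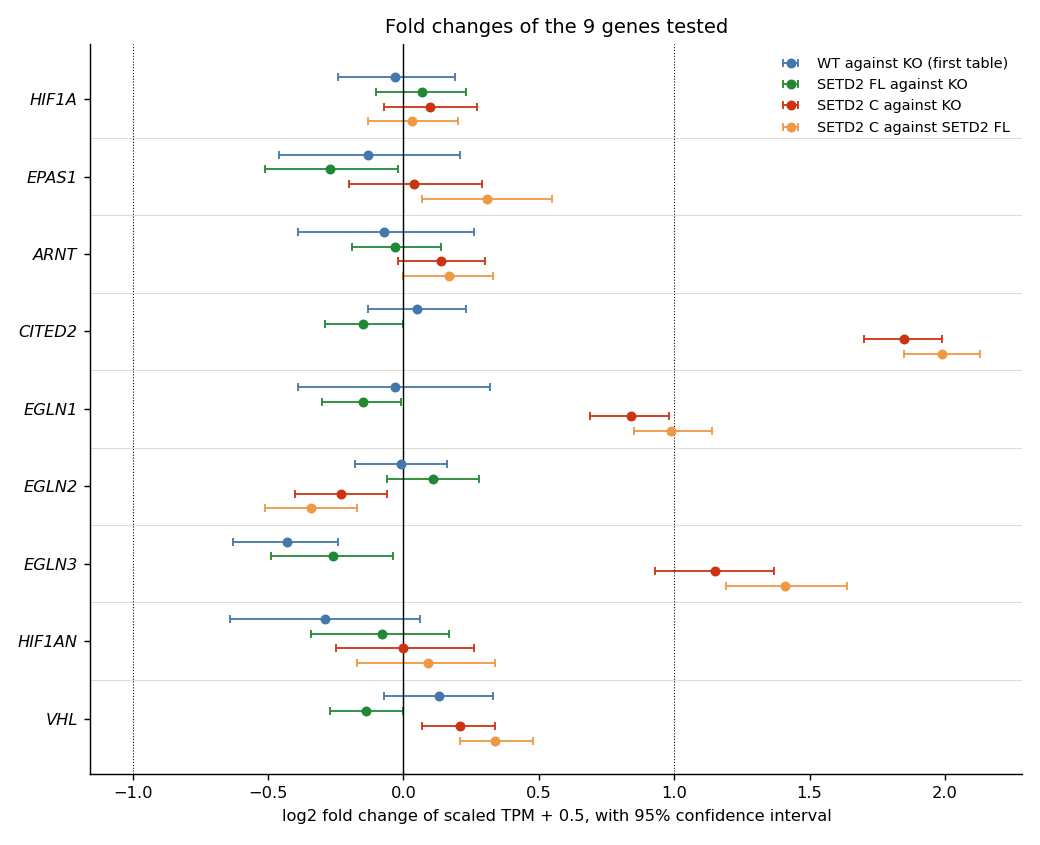
Log2 fold change of scaled TPM + 0.5 (horizontal axis, points) with its 95% confidence interval (bars) for the 9 genes tested, in 4 comparisons shown by colour; dotted lines mark a fold change of 2. CITED2, EGLN1 and EGLN3 lie to the right in both comparisons of SETD2 C, from 0.84 to 1.99, and EGLN2 lies to the left in both, at -0.23 and -0.34, or -0.08 and -0.21 without scaling.

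The order of levels changed with SETD2 C. In KO of the second table VHL led with a mean of 48.0 TPM, followed by CITED2 at 30.2 and EGLN2 at 28.8, which overlapped, then EGLN1 at 25.4. ARNT at 23.1 and HIF1A at 22.2 overlapped, and EGLN3 at 16.8, HIF1AN at 12.3 and EPAS1 at 9.48 followed without overlap. With SETD2 C the order was CITED2 at 122 TPM, VHL at 61.4, EGLN1 at 50.8, EGLN3 at 41.9 and ARNT at 28.2, without overlap between neighbours. EGLN2 at 27.1 and HIF1A at 26.4 overlapped, and HIF1AN at 13.7 and EPAS1 at 10.9 came last before HIF3A. With SETD2 FL the order was led by VHL at 44.2, EGLN2 at 31.4 and CITED2 at 27.6, and then HIF1A, EGLN1 and ARNT, between 23.6 and 23.0, of which HIF1A overlapped EGLN1 and EGLN1 overlapped ARNT.

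Levels in the libraries labelled KO also differed between the tables. HIF1A had a mean of 58.4 TPM in the first and 22.2 in the second, CITED2 56.3 and 30.2, and HIF1AN 39.4 and 12.3. VHL was at 46.8 and 48.0 and EGLN3 at 15.9 and 16.8. The tables were made separately, so these levels were not tested against each other. In the first table HIF1A and CITED2 had the 2 highest means of the 10 in both groups, and they overlapped. In WT both also overlapped VHL, at a mean of 47.2 TPM, and in KO neither did.

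Other genes of the pathway were taken from lists. The list for the VHL ubiquitin ligase held its subunits ELOB, ELOC, CUL2 and RBX1 and the RBX1 paralogue RNF7, better known as a partner of CUL5, and all 5 were tested. With SETD2 C relative to KO, RNF7 was the 1 of 5 past the adjusted p as higher, beside 21.1% of all genes, with a log2 fold change of 0.28 (SE 0.05), and no subunit of the VHL ligase in the list passed. Its TPM was 65.0 and 66.4 in KO and 88.7 and 88.5 with SETD2 C. The scaffold CUL2 had log2 fold changes of -0.18 against KO and -0.26 against SETD2 FL, past the adjusted p in the latter, where RNF7 was also past it as higher (0.29, SE 0.05). These are 1 of 5 in each direction, beside 21.4% higher and 16.8% lower. The adaptors ELOB and ELOC had log2 fold changes of -0.10 and 0.15 relative to KO, and RBX1 of 0.02. None of the 5 passed the adjusted p in limma for WT against KO or for SETD2 FL against KO, where 1 and 0 reached an unadjusted p under 0.05, beside 24.9% and 15.9% of all genes.

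Among 9 partners and coactivators of HIF, 2 were past the adjusted p as higher and 2 as lower with SETD2 C relative to KO, beside 21.1% and 15.1% of all genes, with a median log2 fold change of -0.01. ARNT2, a paralogue of ARNT, had 0.46 (SE 0.12) and the chaperone HSP90AA1, which stabilises HIF alpha, 0.29 (SE 0.05). The lower pair were the chromatin remodeller CHD4 at -0.31 and HSP90AB1 at -0.20 (SE 0.05 for both). EP300, which encodes the coactivator p300, did not pass, at -0.05 (SE 0.08). Relative to SETD2 FL, 2 of 9, CHD4 and HSP90AB1, were past the adjusted p as lower, beside 16.8% of all genes. None was past it as higher, beside 21.4%, and 3 of the 9 had an unadjusted p under 0.05 in limma, beside 48.8%. None of the 9 passed for SETD2 FL against KO or WT against KO in limma, where 1 and 3 reached an unadjusted p under 0.05, beside 15.9% and 24.9% of all genes.

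Of 11 other regulators of HIF stability or hydroxylation, 10 were tested and P4HTM was not. With SETD2 C relative to KO, 2 were past the adjusted p as higher and 2 as lower, beside the same 21.1% and 15.1%. WSB1, a ubiquitin ligase subunit that targets VHL, was at 47.2 and 49.8 TPM in KO, 44.5 and 42.7 for SETD2 FL and 111 and 118 for SETD2 C. Its log2 fold change with SETD2 C against KO was 1.09 and against SETD2 FL 1.26 (SE 0.07 for both), and it was the 1 gene of the list at a fold change of at least 2. SIAH1, a ligase that targets EGLN proteins, had 0.25 relative to KO (SE 0.08). The lower genes were MCM7 at -0.36 (SE 0.05) and RACK1 at -0.26 (SE 0.06). Relative to SETD2 FL, WSB1 and RWDD3 (0.19, SE 0.06) were past the adjusted p as higher and MCM7 (-0.38, SE 0.05) and OS9 (-0.19, SE 0.06) as lower, beside 21.4% and 16.8%. SIAH1 (0.23) and RACK1 (-0.16) did not pass there. None of the 10 passed for SETD2 FL against KO or WT against KO in limma, where 2 and 1 reached an unadjusted p under 0.05, beside 15.9% and 24.9%.

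HIF-responsive genes were counted in 4 lists of 56 genes in all, with no overlap with the 10 genes above. In the second table, tests covered 53 of them, all but ANGPTL4, EPO and SLC16A3. With SETD2 C relative to KO, 47 of the 53 were past the adjusted p as higher and 0 as lower, and 25 were also at a fold change of at least 2. The shares over all genes were 21.1% and 3.75% higher, as above. The median log2 fold change was 0.92, against 0.05 for all genes tested. Relative to SETD2 FL, 49 of 53 were past the adjusted p as higher, beside 21.4% of all genes, and 27 also with a fold change of at least 2, beside 3.36%. The median was 1.06 against 0.04. The lists, like the members, were drawn up with results of these libraries known, so these counts are not independent evidence of a direction. The share of mitochondrially encoded transcripts was lowest, and the number of genes above 0 highest, in the same SETD2 C libraries, and their part was not tested.

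By list, the genes of cell survival and lipid metabolism had the highest median with SETD2 C relative to KO, at 1.38, with 10 of 10 past the adjusted p. HILPDA, a lipid droplet protein, led them with a log2 fold change of 3.24 (SE 0.10), and ERO1A, an oxidase of the endoplasmic reticulum, was lowest with 0.73 (SE 0.09). The hydroxylases and nuclear factors had a median of 0.82 with 10 of 12 past it. ANKRD37 had 3.44 (SE 0.08) and the transcriptional repressor BHLHE40 2.07 (SE 0.08), while the histone demethylase KDM4C had 0.12 and RORA 0.26, neither past it.

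Secreted and surface proteins had a median of 0.91 with 8 of 9 past it, from the peptide hormone ADM at 2.89 (SE 0.10) to the lipoprotein receptor VLDLR at 0.25 (SE 0.12), which did not pass. The glucose metabolism genes had a median of 0.62 with 19 of 22 past it. The neuronal enolase ENO2 had 2.74 (SE 0.06) and the glucose transporter SLC2A3 2.54 (SE 0.12). Glycogen synthase GYS1 had -0.09, the glycolytic enzyme GPI 0.10 and PFKL 0.18, none of them past the adjusted p.

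With SETD2 FL relative to KO, 0 of the 53 passed the adjusted p and 12 reached an unadjusted p under 0.05 in limma, beside 15.9% of all genes. The median was -0.08 against 0.01 for all genes, and 14 of 53 had a positive log2 fold change, beside 51.4% of all genes. ANKRD37 was at 12.4 and 13.8 TPM in KO and 10.53 and 10.97 TPM with SETD2 FL (log2 fold change -0.29, SE 0.08). PGK1, a glycolytic kinase, had -0.24 (SE 0.05) and CA12, a carbonic anhydrase, 0.37 (SE 0.11). As above, the lists were drawn up with results of these libraries known, so these counts are descriptions.

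WT against KO had 52 of the 56 tested, CA9 being the further gene left out. Of these, 8 were past the adjusted p as higher in WT and 0 as lower, beside 3.17% of all genes higher and 1.32% lower, and none had a fold change of at least 2. An unadjusted p under 0.05 from limma was reached by 19 of the 52, beside 24.9% of all genes. The median was 0.04 against 0.01 for all genes. The lists were drawn up with results of these libraries known, so these counts and the p-values below are descriptions and not evidence of a direction. VEGFA, the angiogenic growth factor, was at 36.4 and 44.2 TPM in WT and 27.2 and 26.2 TPM in KO, a log2 fold change of 0.71 (SE 0.07, limma adjusted p = 0.00498). DDIT4, an inhibitor of mTORC1, was at 128 and 165 TPM in WT and 90.1 TPM in both KO libraries, a log2 fold change of 0.82 (SE 0.07, limma adjusted p = 0.00358). Both WT libraries were above both KO libraries for these genes. The others were ENO2 (0.90), VLDLR (0.79), PPFIA4 (0.64), STC2 (0.57), SLC2A3 (0.51) and P4HA1 (0.41). Other genes of the lists lay the other way without passing, among them ALDOC (-0.59, SE 0.13, limma adjusted p = 0.0552) and NDRG1 (-0.35, SE 0.09, limma adjusted p = 0.0792). Of the 52, 28 had a positive log2 fold change, or 53.8%, beside 51.1% of all genes. EGLN3, also a HIF-responsive gene, had the opposite sign (-0.43). The count was 5 without WT replicate 1, 9 without WT replicate 2, 3 without KO replicate 1 and 2 without KO replicate 2.

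**Figure D4:**
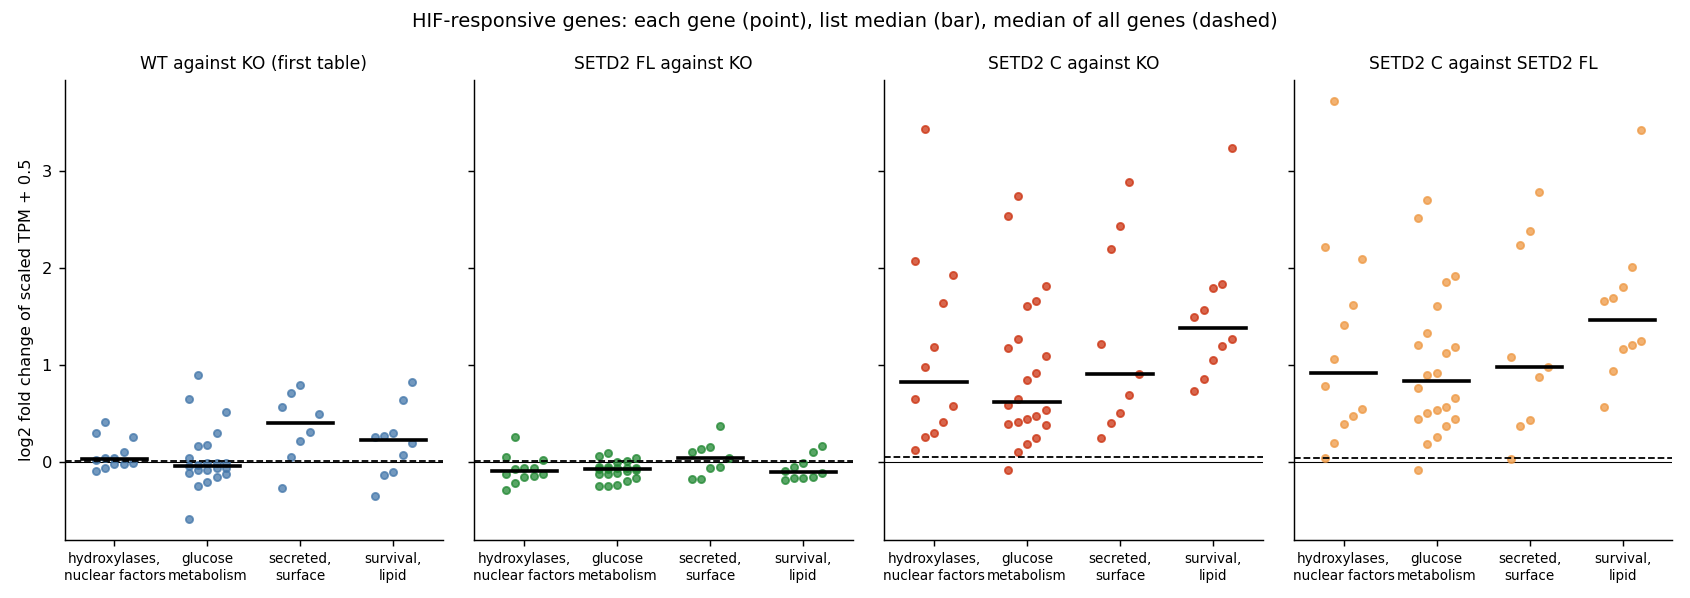
Log2 fold change of scaled TPM + 0.5 (vertical axis) of each tested HIF-responsive gene (points) in 4 lists and 4 comparisons, with the median of each list (bar) and of all genes tested (dashed line). With SETD2 C the list medians run from 0.62 to 1.38 relative to KO, above the dashed line at 0.05, whereas with SETD2 FL they run from -0.11 to 0.04 around a dashed line at 0.01.

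Genes with the pattern most like the members were sought for CITED2 and EGLN3, by Pearson correlation of log2 values over the 6 libraries of the second table, which share 3 groups. For CITED2 the 3 most alike were CXorf40A (r of 0.9996), IER3 (0.999) and HOXA13 (0.999), and 190 genes had an r of at least 0.99. IER3, an early response gene, was at 15.4 and 15.7 TPM in KO, 14.1 and 14.8 for SETD2 FL and 60.3 and 64.0 for SETD2 C. For EGLN3 they were the linker histone gene HIST1H1C (0.9997), PREX1 (0.9987) and the lncRNA AL445228.2 (0.9983), among 117 genes with an r of at least 0.99. HIST1H1C was at 19.5 and 21.6 TPM in KO, 15.1 and 19.1 for SETD2 FL and 55.0 and 57.9 for SETD2 C. These correlations describe the 6 libraries and were not tested.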

How the data were processed

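The authors sequenced RNA after ribodepletion and polyA enrichment. Per the labels and the study's methods, reads were processed with bcl2fastq 2.18, aligned with STAR 2.6.1c and quantified with RSEM 1.3.0 on hg38 with Ensembl 96 gene models. The deposited values are TPM per gene, without normalization between libraries. The 14 ChIP-seq samples were not analysed here.

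Scaling factors, from 0.879 to 1.069, were the median over genes of a library's TPM divided by the gene's geometric mean, using protein-coding and lncRNA genes (GENCODE 44) at 1 TPM or more throughout a table. Genes of these types that reached 0.5 TPM in 2 or more libraries of a table were tested as log2(scaled TPM + 0.5), a scale that understates changes of low genes. limma 3.58.1 in R 4.3.3 was used (lmFit, contrasts.fit, eBayes with trend), per table, with the 6 libraries of the second in a single fit. The procedure was tested on simulated data. With 2 libraries a group, the smallest p of an exact permutation is 0.333. Replicates correlated at 0.993 to 0.995 across genes, which are not independent replicates.

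The members and lists were chosen with earlier results of these data known. Genes named are the members, SETD2, the VHL ligase list and, for CITED2 and EGLN3, the 3 most alike. From each other pathway list and comparison, up to 3 with the highest and 3 with the lowest log2 fold changes are named, with those not tested. Also named are some genes that share exon bases with members, and COL1A1, the highest marker of other cell types. VEGFA and DDIT4 levels were picked for print after values were seen. Alternatives were other pseudocounts, filters and scalings, eBayes without trend, all gene types, only the groups compared, a replicate block and each library left out.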

Additional observations from a re-analysis of the deposited data

How the results depend on the processing

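Libraries number 2 per group, the depth behind TPM is unknown, and leaving a library out leaves 1 in its group, which is assumed to vary like the others. The counts of HIF-responsive genes under each alternative were added after seeing the data. Left unscaled, all genes tested had a median shift of 0.18 against 0.05 for SETD2 C relative to KO, 0.16 against 0.04 relative to SETD2 FL, and -0.11 against 0.01 for WT relative to KO.

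The members past the adjusted p numbered 1 for WT against KO. They numbered 0 without the filter (any TPM above 0), with eBayes without trend and with all gene types, and 0 to 1 with a library left out. For SETD2 C against KO they numbered 5, against 3 with eBayes without trend, 6 without scaling and 3 to 4 with a library left out. For SETD2 C against SETD2 FL they numbered 6, and 4 to 6 with a library left out. For SETD2 FL against KO they numbered 0 under every alternative run. The cause was not tested. EGLN3 in WT against KO had adjusted p-values from limma of 0.106 without the filter, 0.0735 without trend and 0.0596 with all gene types. HIF-responsive genes past the adjusted p in WT against KO numbered 8, against 2 without the filter, 10 for genes at 1 TPM or more throughout, 10 with the replicate block and 2 to 9 with a library left out. For SETD2 C against KO they numbered 47, with a range of 43 to 51 over all alternatives, and against SETD2 FL 49, with a range of 43 to 50.

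Members not past the threshold changed sign in WT against KO without WT replicate 1 (ARNT 0.14, EGLN1 0.17), WT replicate 2 (HIF1A 0.03, EPAS1 0.08), KO replicate 1 (HIF1A 0.06, EGLN2 0.01) or KO replicate 2 (EGLN1 0.09), and without scaling (VHL -0.00, CITED2 -0.08). In SETD2 FL against KO they did so without KO replicate 2 (ARNT 0.03) or SETD2 FL replicate 3 (ARNT 0.02, HIF1AN 0.06). The cause was not tested. With a library left out, the log2 fold changes in WT against KO ran from -0.12 to 0.06 for HIF1A, -0.33 to 0.08 for EPAS1, -0.28 to 0.14 for ARNT, -0.23 to 0.17 for EGLN1 and -0.04 to 0.01 for EGLN2. In SETD2 FL against KO they ran from -0.08 to 0.03 for ARNT and -0.22 to 0.06 for HIF1AN. Over all settings the sign also changed with SETD2 C for EPAS1 (-0.07 to 0.18) and HIF1AN (-0.09 to 0.15) against KO, and for HIF1A (-0.04 to 0.16) and HIF1AN (-0.05 to 0.22) against SETD2 FL.

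WT and KO of the first table share both replicate numbers (deviations of same-numbered libraries correlated at 0.147 across genes). With the replicate block, 1269 genes passed the adjusted p against 661, 214 were called against 200, and 1 member passed, EGLN3 (-0.43, adjusted p = 0.0346 from limma). No paired analysis was possible in the second table because no pair of its groups shares 2 numbers.

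Genes past the adjusted p in WT against KO numbered 86 without the filter, 414 without trend, 429 with all gene types and 157 to 1245 with a library left out. In SETD2 FL against KO the count of 33 became 3, 10 and 7 under the same settings, 58 without scaling and 2 to 23 with a library left out. With a library left out it was 3065 to 5646 for SETD2 C against KO, from 5764, and 3438 to 5965 against SETD2 FL, from 6087. Genes called in WT against KO (200) numbered 128 at a pseudocount of 1, 73 without the filter, 83 for genes at 1 TPM or more throughout and 123 to 214 with a library left out. In SETD2 FL against KO (13) the first 3 of these settings gave 7, 3 and 6, all gene types 6, no scaling 21 and a library left out 2 to 13. In SETD2 C against KO (647) a pseudocount of 0.1 gave 1080, of 1 gave 373 and keeping genes at 1 TPM or more throughout 301. Against SETD2 FL (603) these gave 957, 362 and 308.

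The share of genes past the adjusted p that were higher was 58.3% for SETD2 C against KO, 83.1% without scaling and 46.9% under quantile normalization. Against SETD2 FL it was 56.0%, 77.5% and 46.8%, and for WT against KO 70.7%, 46.7% without scaling and 61.7% to 83.3% with a library left out. For SETD2 FL against KO it was 84.8%, with a range of 69.6% to 100% over all settings. Of called genes, 92.3% were higher for SETD2 C against KO and 72.5% under quantile normalization, and 88.9% and 72.7% against SETD2 FL. For WT against KO 75% were higher, and 62.2% to 82.2% with a library left out. For SETD2 FL against KO 92.3% were higher, 81.0% without scaling, 69.2% with only the groups compared and 69.2% to 100% with a library left out.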
